A study of Mus musculus with 4 samples.

Results

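Retinol (vitamin A) metabolism and retinoid binding were followed through 9 genes, chosen by name from the gene count table: Adh1, Adh7, Rdh10, Dhrs3, Aldh1a1, Aldh1a2, Aldh1a3, Crabp2 and Cyp26b1. All 9 were found among the 54532 genes of the table, each in 1 row. The table holds reads per gene for 4 RNA-seq libraries of mouse thymic epithelial cells on the C57BL/6 strain background. These are medullary cells (mTEC, sorted as Ly51- UEA1+) of SCD1 knockout mice (KO mTEC) and of littermate controls labelled WT (WT mTEC), and cortical cells (cTEC, sorted as Ly51+ UEA1-) of the same genotypes (KO cTEC and WT cTEC). SCD1 is a desaturase of fatty acid synthesis, with oleic acid as its main product. Each group has 1 library, so no difference has a replicate check, no test was made, and the 95% intervals cover counting error of these libraries only. The labels used here do not say how many mice of which age went into each library, nor in which cells Scd1 was deleted.

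Cells make retinoic acid from retinol in a pair of oxidation steps. Alcohol and retinol dehydrogenases (Adh1, Adh7, Rdh10) turn retinol into retinal, Dhrs3 turns retinal back into retinol, and the retinal dehydrogenases Aldh1a1, Aldh1a2 and Aldh1a3 oxidise retinal irreversibly to retinoic acid. Crabp2 carries retinoic acid to its nuclear receptors, and Cyp26b1 oxidises it for removal. Dhrs3 and the Cyp26 genes are well known targets of retinoic acid receptors, so that they act as feedback on the pathway. In the thymus, retinoic acid signalling in epithelial cells is known to influence their growth and differentiation.

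The libraries held 17051620 reads in KO mTEC, 16467844 in WT mTEC, 18151725 in KO cTEC and 15740383 in WT cTEC. Scd1 was at 15.8 CPM in KO mTEC, against 76.9 CPM in WT mTEC, and at 4.16 CPM in KO cTEC, against 21.3 CPM in WT cTEC. CPM here are read counts relative to library size, after scaling by the trimmed mean of M-values. The labels used here do not name the deleted part of Scd1, so its remaining reads cannot be placed relative to it. The defining markers of both sorts stood where the labels put them. Aire, the regulator of tissue-restricted antigens in mTEC, had 22186 and 21598 reads in KO and WT mTEC, against 590 and 575 reads in KO and WT cTEC. Psmb11, the thymoproteasome gene of cTEC, had 1026 and 706 reads in KO and WT mTEC, against 12201 and 8462 reads in KO and WT cTEC. The 10 cTEC markers summed to 3843 and 3191 CPM in KO and WT mTEC and to 23362 and 18760 CPM in KO and WT cTEC. In bulk libraries such as these, fewer cells of a type and less RNA per cell cannot be told apart.

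Set on a scale per gene length (TPM, computed from the counts and the deposited gene lengths), Dhrs3 was the highest of the 9 genes in both cTEC libraries, at 128 TPM in KO cTEC and 152 TPM in WT cTEC. Those levels exceeded 95.3% and 96.0% of the genes detected there. In KO cTEC the order after Dhrs3 was Cyp26b1 (45.6 TPM), Aldh1a3 (36.3), Rdh10 (23.6), Aldh1a1 (18.5), Crabp2 (17.2), Adh1 (11.7), Aldh1a2 (0.783) and Adh7 (0.383). The intervals of Aldh1a1 and Crabp2, and those of Aldh1a2 and Adh7, overlapped. In WT cTEC Aldh1a3 (41.4 TPM) stood above Cyp26b1 (34.8), followed by Aldh1a1 (22.7), Rdh10 (20.6), Crabp2 (19.3), Adh1 (14.9), Adh7 (1.04) and Aldh1a2 (0.496). There, each neighbour from Aldh1a1 to Adh1 overlapped the next, as did Adh7 and Aldh1a2.

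In mTEC, Dhrs3 and Rdh10 led the order. In KO mTEC they stood at 41.8 and 33.9 TPM, followed by Aldh1a3 (24.4), Crabp2 (23.7), Adh1 (11.1), Cyp26b1 (6.32), Aldh1a2 (5.94), Aldh1a1 (2.79) and Adh7 (1.09). In WT mTEC Rdh10 and Dhrs3 stood at 39.5 and 39.1 TPM, within each other's intervals, followed by Aldh1a3 (27.5), Crabp2 (25.8), Adh1 (11.6), Aldh1a2 (5.92), Cyp26b1 (4.76), Aldh1a1 (2.99) and Adh7 (2.92). Aldh1a3 and Crabp2 overlapped in both medullary libraries, as did Cyp26b1 and Aldh1a2, and in WT mTEC also Aldh1a1 and Adh7. Summed over the 9 genes, the level was 151 TPM in KO mTEC and 160 TPM in WT mTEC, against 282 TPM in KO cTEC and 307 TPM in WT cTEC.

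**Figure D1:**
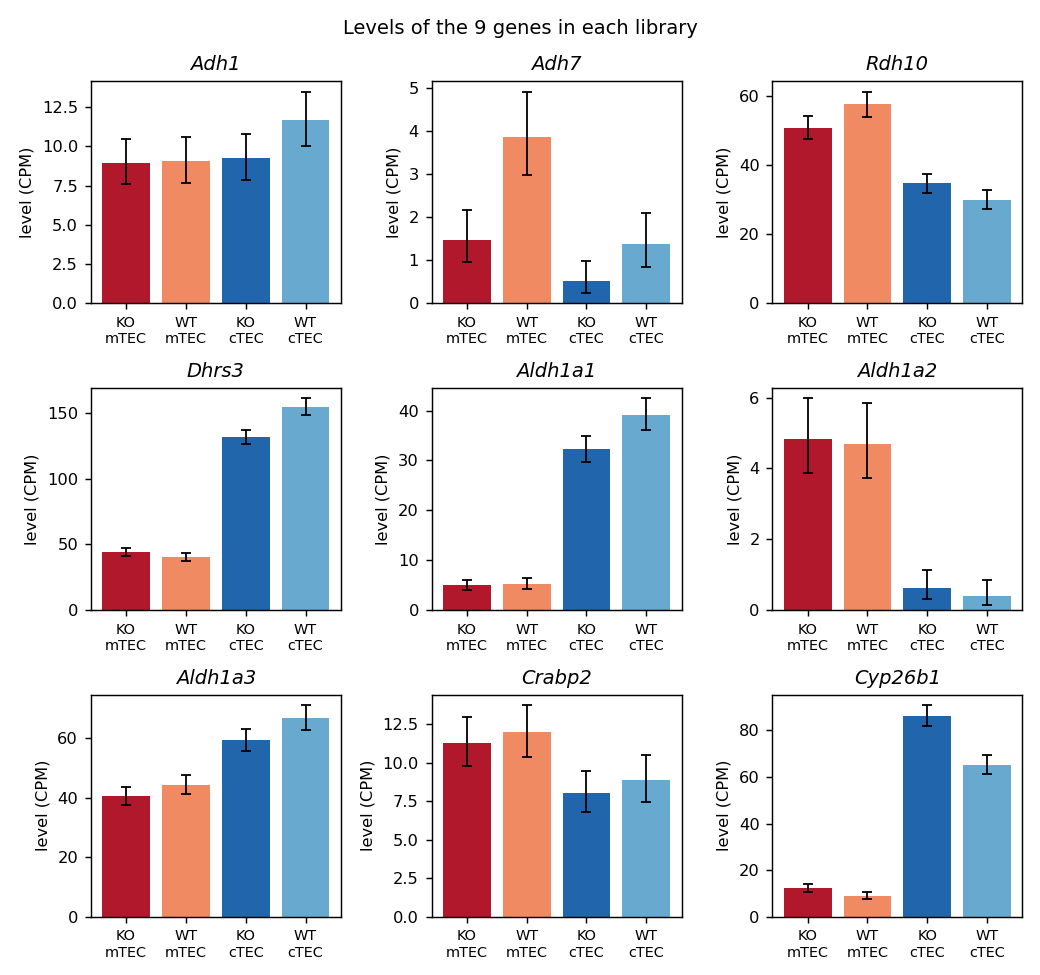
Level of each gene in CPM (y axis, from 0, with its own scale in each panel) in the KO mTEC, WT mTEC, KO cTEC and WT cTEC libraries (x axis). Bars are the single library of each group and whiskers its exact 95% Poisson interval: Dhrs3, Aldh1a1 and Cyp26b1 stand highest in the 2 cTEC libraries, and Aldh1a2 and Rdh10 in the 2 mTEC libraries.

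The population comparison asked which of these genes differ between medullary and cortical cells, and it can be read once in the KO pair and once in the WT pair, which share no library. A gene is called different below when a pair holds at least 50 reads, the ratio is at least 2-fold (a log2 ratio of 1) and its interval excludes equality. By that rule Dhrs3, Aldh1a1 and Cyp26b1 were lower in mTEC and Aldh1a2 was higher in mTEC in both genotypes, and Adh7 was higher in mTEC in the WT pair. In the KO pair 1 of 8 genes was called higher and 3 lower, where 19.8% and 8.96% of the 15962 genes with enough reads were, or 28.8% in either direction. Of the 9 in the WT pair, 2 were called higher and 3 lower, against 19.0% and 8.53% of 15747 genes, or 27.5% in either direction. With no threshold on size, 3 of the 8 genes had an interval above equality and 4 below it in KO (34.9% and 41.6% of all genes), and 4 and 5 of the 9 did in WT (34.8% and 39.9%). The median log2 ratio was -0.30 over the 8 genes in KO and -0.37 over the 9 in WT, with medians over all genes of -0.077 and -0.055.

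The 250 bases before and 50 after an annotated start are shown for the genes that separated the populations, those of cTEC first, to set their base composition and motifs side by side. The sequences are from RefSeq (GRCm38.p6, the same assembly as the mm10 build of the counts). In the set of windows used here, 6 of the 9 genes had an entry. Aldh1a3, Rdh10 and Crabp2 had none. Capitals mark matches on either strand to a half-site of retinoic acid receptors (spelled AGGTCA or as AGTTCA, and also as GGGTCA and in the form GGTTCA), to the CCAAT box and to the TATAAA box. Dhrs3 has 3 windows, of which the first is shown, and Aldh1a1 has 2, of which the one with matches is shown.
Cyp26b1, minus strand, chr6:84593761-84594060: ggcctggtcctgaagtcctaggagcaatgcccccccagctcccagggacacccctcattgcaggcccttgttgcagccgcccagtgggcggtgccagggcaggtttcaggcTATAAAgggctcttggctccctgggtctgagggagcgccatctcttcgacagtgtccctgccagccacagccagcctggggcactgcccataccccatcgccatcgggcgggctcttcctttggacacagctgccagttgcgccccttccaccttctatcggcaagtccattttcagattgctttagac
Dhrs3, plus strand, chr4:144892577-144892876: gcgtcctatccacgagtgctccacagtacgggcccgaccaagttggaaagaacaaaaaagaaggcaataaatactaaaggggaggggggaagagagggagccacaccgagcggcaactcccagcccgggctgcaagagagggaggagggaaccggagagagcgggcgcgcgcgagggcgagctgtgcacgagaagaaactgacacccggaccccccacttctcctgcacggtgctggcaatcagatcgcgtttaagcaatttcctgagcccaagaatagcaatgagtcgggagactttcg
Aldh1a1, plus strand, chr19:20601718-20602017: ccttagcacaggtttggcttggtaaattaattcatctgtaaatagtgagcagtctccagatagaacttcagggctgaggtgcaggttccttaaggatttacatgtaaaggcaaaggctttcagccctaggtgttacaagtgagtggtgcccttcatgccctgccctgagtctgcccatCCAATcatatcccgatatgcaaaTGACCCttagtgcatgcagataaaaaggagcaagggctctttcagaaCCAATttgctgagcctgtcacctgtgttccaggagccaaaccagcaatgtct
Aldh1a2, plus strand, chr9:71215539-71215838: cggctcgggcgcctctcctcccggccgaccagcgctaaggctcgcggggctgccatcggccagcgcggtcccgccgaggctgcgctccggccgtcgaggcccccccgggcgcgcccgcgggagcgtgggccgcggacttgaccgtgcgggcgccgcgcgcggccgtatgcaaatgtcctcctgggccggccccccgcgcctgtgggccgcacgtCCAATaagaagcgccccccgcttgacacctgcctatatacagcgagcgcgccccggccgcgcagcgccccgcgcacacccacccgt
Adh7, plus strand, chr3:138217523-138217822: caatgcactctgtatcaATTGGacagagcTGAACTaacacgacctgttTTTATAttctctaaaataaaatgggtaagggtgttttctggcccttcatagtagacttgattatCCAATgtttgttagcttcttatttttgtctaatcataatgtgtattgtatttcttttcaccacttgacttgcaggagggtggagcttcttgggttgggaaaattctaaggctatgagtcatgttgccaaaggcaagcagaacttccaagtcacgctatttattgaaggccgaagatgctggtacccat
The windows shown of Cyp26b1 and Dhrs3 held 62.3% and 58.7% G and C and that of Aldh1a1 47.0%. Windows of the same gene differed, with 45.0% and 45.3% in those of Dhrs3 not shown and 43.3% in that of Aldh1a1. Aldh1a2 stood at 78.0% and Adh7 at 39.3%, where the median of all 32851 windows was 52.7% and the middle 90% ran from 36.3% to 73.7%. The windows shown of Cyp26b1, Dhrs3 and Aldh1a2 held none of the 4 half-site spellings, and those of Aldh1a1 and Adh7 1 each. Of all windows, 43.7% hold at least 1 such half-site. No DR5 or DR2 retinoic acid response element, a pair of such half-sites in the same direction spaced by 5 or 2 bases, was found in any window of the 6 genes, and 0.0974% and 0.268% of all windows hold one. Among the windows shown, the CCAAT box was found for Aldh1a1, Aldh1a2 and Adh7 (37.4% of all windows hold one) and the TATAAA box for Cyp26b1 and Adh7 (13.6%). Unlike the Dhrs3 window shown, its other windows hold a CCAAT box, and the Aldh1a1 window not shown holds none of these matches. These matches describe the letters of the windows only.

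Among the genes that move between retinol and retinal, Dhrs3 (ENSMUSG00000066026, mm10 chromosome 4, 144892827 to 144928209, plus strand) was called lower in mTEC. It had 774 reads (44.1 CPM) in KO mTEC, against 2316 reads (132 CPM) in KO cTEC. In the WT pair it had 684 reads (40.1 CPM) in mTEC, against 2371 reads (155 CPM) in cTEC. The log2 ratio was -1.58 (-1.70 to -1.47) in KO and -1.95 (-2.08 to -1.83) in WT, so that both cortical libraries lay above both medullary ones. Rdh10 (ENSMUSG00000025921, chromosome 1, 16105774 to 16133734, plus strand), the main retinol dehydrogenase of the embryo, lay the other way and was not called. It was at 50.8 CPM in KO mTEC, against 34.7 CPM in KO cTEC, and at 57.6 CPM in WT mTEC, against 30.0 CPM in WT cTEC. Its log2 ratio was 0.55 (0.40 to 0.70) in KO and 0.94 (0.78 to 1.11) in WT, where total-count scaling gives 1.03, past 2-fold.

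The opposite directions of Dhrs3 and Rdh10 give a ratio within each library that does not depend on how libraries are scaled. This ratio and the others below were chosen after the values were seen. There were 0.867 Dhrs3 reads per Rdh10 read in KO mTEC (0.786 to 0.955), against 3.81 in KO cTEC (3.48 to 4.17). For WT it was 0.697 in mTEC (0.632 to 0.770), against 5.18 in cTEC (4.68 to 5.73). Per gene length the same ratio was 1.23 in KO mTEC and 5.41 in KO cTEC, and 0.991 in WT mTEC and 7.36 in WT cTEC. The read ratio was 4.39-fold lower in mTEC than in cTEC in KO and 7.42-fold lower in WT.

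The alcohol dehydrogenases were scarcer. Adh7 (ENSMUSG00000055301, chromosome 3, 138217760 to 138233382, plus strand), a retinol-oxidising enzyme of stratified epithelia, had 26 reads in KO mTEC, against 9 in KO cTEC, and 66 reads in WT mTEC, against 21 in WT cTEC. Its log2 ratio was 1.48 (0.39 to 2.81) in KO, where the pair held fewer than 50 reads, and 1.47 (0.77 to 2.28) in WT, where it was called. Adh1 (ENSMUSG00000074207, chromosome 3, 138260991 to 138290698, plus strand), the broadly expressed class I enzyme, had 157 reads in KO mTEC and 162 in KO cTEC, and 154 reads in WT mTEC and 178 in WT cTEC. Its log2 ratio was -0.05 (-0.37 to 0.28) in KO, which turns to 0.05 with total-count scaling, and -0.37 (-0.69 to -0.05) in WT. Of the 50-base windows of the longest Adh1 and Adh7 transcripts, 3.26% and 1.83% occur in another gene, and in each case the genes sharing them include an overlapping antisense gene, which had at most 3 reads in a library.

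The reads of the retinal dehydrogenase genes Aldh1a1, Aldh1a2 and Aldh1a3 were divided differently between the populations. Aldh1a1 (ENSMUSG00000053279, chromosome 19, 20492715 to 20643462, plus strand) had 87 reads (4.95 CPM) in KO mTEC, against 565 reads (32.2 CPM) in KO cTEC. In the WT pair it had 88 reads (5.16 CPM) in mTEC, against 599 reads (39.2 CPM) in cTEC. It was thus 6.48-fold lower in mTEC in KO (log2 ratio -2.70, -3.05 to -2.37) and 7.55-fold lower in WT (-2.92, -3.26 to -2.60). Aldh1a1 shares 6.54% of its windows with Aldh1a7, a neighbouring copy gene on chromosome 19, which lay the other way with 153 reads in KO mTEC, against 3 in KO cTEC, and 150 in WT mTEC, against 10 in WT cTEC.

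Aldh1a2 (ENSMUSG00000013584, chromosome 9, 71215789 to 71296243, plus strand), the main retinal dehydrogenase of the embryo, had the opposite order. It had 85 reads (4.84 CPM) in KO mTEC, against 11 reads (0.627 CPM) in KO cTEC. In WT libraries it had 80 reads (4.69 CPM) in mTEC, against 6 reads (0.393 CPM) in cTEC. The log2 ratio was 2.89 (2.04 to 4.0) in KO and 3.47 (2.39 to 5.07) in WT. Aldh1a2 is also known from mesenchymal cells and mesothelium. The 4 mesothelial markers summed to 134 and 129 CPM in KO and WT mTEC, against 42.8 and 49.9 CPM in KO and WT cTEC, with Msln the most abundant and Wt1 at 9 and 6 reads in KO and WT mTEC, against 4 and 6 reads in KO and WT cTEC. The 12 fibroblast and pericyte markers summed to 845 and 840 CPM in KO and WT mTEC, against 560 and 576 CPM in KO and WT cTEC, and 8 of 12 were higher in mTEC in each genotype. Most of the mTEC sum was the pericyte and smooth muscle genes Rgs5 and Acta2. The collagen gene Col1a1 was also higher in mTEC, at 28.3 CPM in KO mTEC against 6.73 CPM in KO cTEC. So were Pdgfra, Pdgfrb, Cspg4, Dpp4 and Pi16. The collagen and matrix genes Dcn, Lum, Col1a2 and Col3a1 were higher in cTEC. Dcn was at 71.0 CPM in KO mTEC, against 301 CPM in KO cTEC. None of these markers was at 0 in any library, and their part in the Aldh1a2 difference was not tested.

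Aldh1a3 (ENSMUSG00000015134, chromosome 7, 66390890 to 66427517, minus strand), a retinal dehydrogenase of sensory and glandular epithelia, had the most reads of the 3 enzymes in every library. It was at 40.5 CPM in KO mTEC, against 59.3 CPM in KO cTEC, and at 44.4 CPM in WT mTEC, against 66.9 CPM in WT cTEC. The log2 ratios of -0.55 (-0.69 to -0.41) in KO and -0.59 (-0.73 to -0.45) in WT were below 2-fold. Of the reads of the 3 genes, Aldh1a3 took 80.5% in KO mTEC (exact Clopper-Pearson interval 77.8% to 83.1%) and 81.8% in WT mTEC (79.2% to 84.3%), against 64.4% in KO cTEC (62.0% to 66.7%) and 62.8% in WT cTEC (60.4% to 65.2%). Aldh1a1 took 9.84% and 9.51% in KO and WT mTEC, against 35.0% and 36.8% in KO and WT cTEC. Aldh1a2 took 9.62% and 8.65% in KO and WT mTEC, against 0.681% and 0.369% in KO and WT cTEC. Summed per gene length, the 3 genes stood at 33.1 and 36.4 TPM in KO and WT mTEC and at 55.6 and 64.7 TPM in KO and WT cTEC.

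Crabp2 (ENSMUSG00000004885, chromosome 3, 87948666 to 87953376, plus strand), the carrier of retinoic acid to the nucleus, differed little between populations. It had 198 reads (11.3 CPM) in KO mTEC, against 141 reads (8.04 CPM) in KO cTEC, and 204 reads (12.0 CPM) in WT mTEC, against 136 reads (8.90 CPM) in WT cTEC. The log2 ratios were 0.49 (0.17 to 0.81) in KO and 0.43 (0.11 to 0.75) in WT. Its relative Crabp1 was far higher in mTEC, with 547 reads in KO mTEC, against 7 in KO cTEC, and 450 in WT mTEC, against 2 in WT cTEC. Crabp2 made up 26.6% of the reads of both genes in KO mTEC, against 95.3% in KO cTEC, and 31.2% in WT mTEC, against 98.6% in WT cTEC.

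Cyp26b1 (ENSMUSG00000063415, chromosome 6, 84571414 to 84593908, minus strand), the retinoic acid hydroxylase, had 214 reads (12.2 CPM) in KO mTEC, against 1514 reads (86.4 CPM) in KO cTEC. In the WT pair it had 152 reads (8.92 CPM) in mTEC, against 996 reads (65.2 CPM) in cTEC. It was 7.08-fold lower in mTEC in KO (log2 ratio -2.82, -3.04 to -2.62) and 7.29-fold lower in WT (-2.87, -3.13 to -2.62). The 10 cTEC markers were lower in mTEC by a median log2 ratio of -2.78 in KO and -2.77 in WT, with none at 0 in a medullary library. Whether the Cyp26b1 reads of the mTEC libraries belong to cells with cortical markers was not tested.

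The other Cyp26 genes had the reverse order, while the family's sum per gene length differed less. Cyp26a1, a second retinoic acid hydroxylase, had 590 reads in KO mTEC, against 17 in KO cTEC, and 479 in WT mTEC, against 13 in WT cTEC (log2 ratios 5.07 and 4.99). Cyp26c1 had 37 and 32 reads in KO and WT mTEC and 0 reads in KO and WT cTEC, where a count of 0 allows up to 0.171 and 0.196 CPM. Cyp26b1 was 25.4% of the family's reads in KO mTEC (22.5% to 28.5%), against 98.9% in KO cTEC (98.2% to 99.4%), and 22.9% in WT mTEC (19.8% to 26.3%), against 98.7% in WT cTEC (97.8% to 99.3%). Per gene length the family summed to 62.3 TPM in KO mTEC, against 47.1 TPM in KO cTEC, and to 53.1 TPM in WT mTEC, against 36.2 TPM in WT cTEC.

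**Figure D2:**
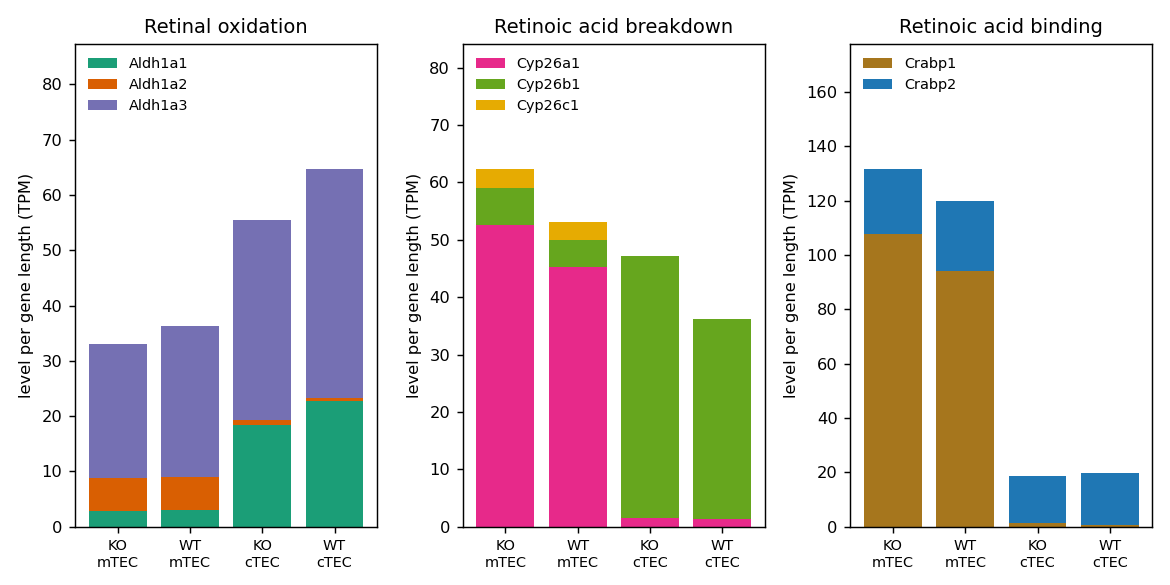
Stacked levels per gene length (y axis, TPM, from 0) of the Aldh1a, Cyp26 and Crabp genes in the KO mTEC, WT mTEC, KO cTEC and WT cTEC libraries (x axis), 1 library per bar. Cyp26a1 fills most of the mTEC bars and Cyp26b1 the cTEC bars, Crabp1 fills most of the mTEC bars of its panel, and Aldh1a1 takes a larger part of the Aldh1a bars in cTEC.

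Within each library, Cyp26b1 reads were also set against those of Aldh1a1, Aldh1a2 and Aldh1a3 together. Cyp26b1 had 0.242 reads per Aldh1a read in KO mTEC (0.208 to 0.281), against 0.937 in KO cTEC (0.873 to 1.01). In WT it had 0.164 in mTEC (0.138 to 0.195), against 0.612 in cTEC (0.565 to 0.663). The ratio was 3.87-fold lower in mTEC than in cTEC in KO and 3.73-fold lower in WT. These ratios leave out Cyp26a1, whose reads were mostly in mTEC. The whole Cyp26 family had 841 reads beside 884 Aldh1a reads in KO mTEC, against 1531 beside 1616 in KO cTEC. In WT it had 663 beside 925 in mTEC, against 1009 beside 1627 in cTEC. The lower ratio in mTEC is thus one of Cyp26b1 and not of the family.

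**Figure D3:**
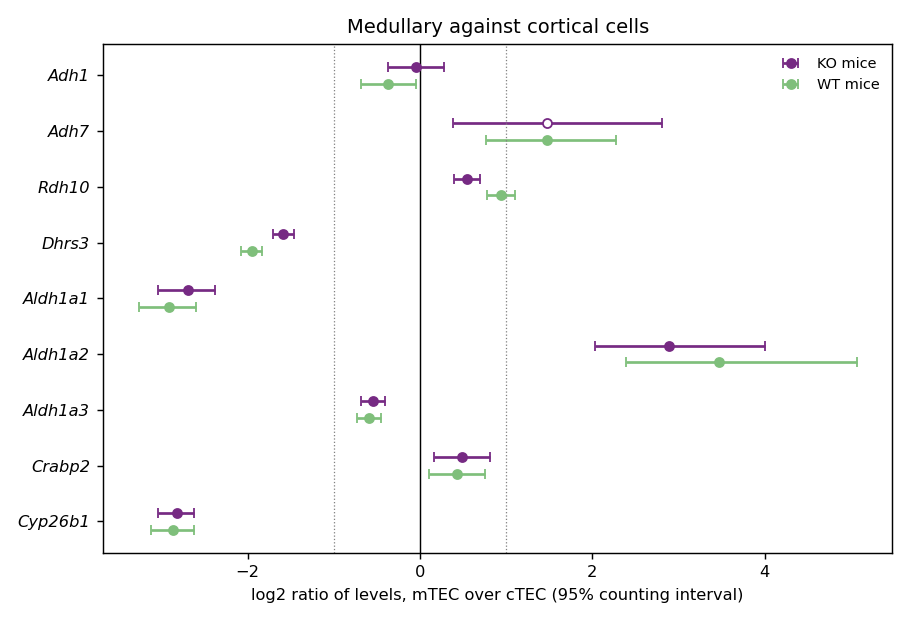
Log2 ratio of mTEC over cTEC (x axis) for each gene (y axis) in KO and in WT mice, with 95% counting intervals as whiskers. The dotted lines mark 2-fold and the open circle a pair under 50 reads: Dhrs3, Aldh1a1 and Cyp26b1 lie left of the lower line in both genotypes, and Aldh1a2 lies to the right of the upper one.

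The genotype comparison asked whether the same genes differ between the libraries of SCD1 knockout mice and those of littermate controls. Adh7 was lower in KO mTEC than in WT mTEC and was the 1 gene of the 9 past 2-fold with at least 50 reads. In mTEC, 1 of the 9 genes was called, on the lower side, where 0.431% of 16466 genes were called lower in KO and 0.935% in either direction. In cTEC, none of the 7 genes with at least 50 reads was called in either direction, where 1.2% of 14445 genes were. The median log2 ratio was -0.06 over the 9 genes in mTEC and -0.17 over the 7 in cTEC, with medians over all genes of 0.0064 and 0.01.

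Adh7 was at 1.48 CPM in KO mTEC, against 3.87 CPM in WT mTEC, from 26 and 66 reads. The difference was 2.59-fold (log2 ratio -1.37, -2.10 to -0.71). In cTEC the ratio was of the same size, at 0.513 CPM in KO cTEC against 1.37 CPM in WT cTEC, but rested on 9 and 21 reads (-1.38, -2.73 to -0.23). The difference between these log2 ratios was 0.0048 (-1.27 to 1.28). Adh7 lies among the alcohol dehydrogenase genes of chromosome 3, of which Adh1 had a ratio of -0.02 (-0.35 to 0.31) in mTEC. Adh6b was higher in KO mTEC with 37 reads, against 16 in WT mTEC (log2 ratio 1.14, 0.28 to 2.11), and had no reads in cTEC. Adh6a had 72 reads in KO mTEC and 62 in WT mTEC (0.17, -0.34 to 0.69), and Adh5 had 1209 and 1205 (-0.04, -0.16 to 0.08). Markers of keratinocyte-like mimetic mTEC, stratified epithelium being a usual site of Adh7, summed to 153 CPM in KO mTEC, against 145 CPM in WT mTEC, and to 53.0 CPM in KO cTEC, against 55.4 CPM in WT cTEC. Of the 7 such markers, 3 were higher in KO mTEC, with a median log2 ratio of -0.025, and none was at 0. Most of the cTEC sum was Grhl1 and Krt10. Of the 5 markers with enough reads in cTEC, 3 were higher in KO, with a median log2 ratio of 0.016. They were Grhl1 (29.9 CPM in KO cTEC, against 26.9 in WT cTEC), Krt10 (12.8, against 10.8) and Lor (2.45, against 2.42). Krt1 (21 reads in KO cTEC, against 44 in WT cTEC) and Sbsn (101, against 166) were lower. So were Flg (7, against 13) and Ivl (7, against 10). The part of these 7 markers in the Adh7 difference was not tested.

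Cyp26b1 was higher in both KO libraries by less than 2-fold. In mTEC it stood at 12.2 CPM in KO, against 8.92 CPM in WT (log2 ratio 0.45, 0.14 to 0.76). In cTEC it stood at 86.4 CPM in KO, against 65.2 CPM in WT (0.41, 0.29 to 0.52). It was the gene of the 9 whose interval lay above equality in both pairs. The cTEC markers moved with it, with 10 of 10 higher in KO mTEC than in WT mTEC (median log2 ratio 0.19) and 10 of 10 higher in KO cTEC than in WT cTEC (0.32). Of the 6 endothelial markers, 4 had enough reads in mTEC, all higher in KO (median 0.69). In cTEC 3 had enough reads, also all higher in KO (0.94). Below that minimum, Tek was lower in KO cTEC, with 15 reads, against 29 in WT cTEC. Kdr was at 1.20 CPM in KO cTEC, against 1.18 CPM in WT cTEC, and Emcn had 11 reads, against 2. Thymocyte markers were higher in KO in 8 of 9 in mTEC (0.25) and 9 of 9 in cTEC (0.36). The part of these cells in the Cyp26b1 difference was not tested. Cyp26a1 stood at 33.6 CPM in KO mTEC, against 28.1 CPM in WT mTEC (0.26, 0.08 to 0.43). Per Aldh1a read, Cyp26b1 reads were 1.47-fold higher in KO mTEC than in WT mTEC (log2 0.56, 0.23 to 0.89) and 1.53-fold higher in KO cTEC than in WT cTEC (0.61, 0.46 to 0.77).

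Aldh1a1, Aldh1a3, Dhrs3 and Adh1 were lower in KO cTEC by less than 2-fold. Aldh1a1 was at 32.2 CPM in KO cTEC, against 39.2 CPM in WT cTEC (log2 ratio -0.28, -0.45 to -0.11), and Aldh1a3 at 59.3 CPM, against 66.9 CPM (-0.17, -0.30 to -0.05). Dhrs3 was at 132 CPM in KO cTEC, against 155 CPM in WT cTEC (-0.23, -0.31 to -0.15), and Adh1 at 9.24 CPM, against 11.6 CPM (-0.33, -0.65 to -0.02). In this pair 4 of 7 genes had an interval below equality and 2, Rdh10 and Cyp26b1, above it, where 14.5% and 16.3% of all genes with enough reads did. In the same pair 7 of 9 mTEC markers were lower in KO cTEC (median -0.19), beside the higher cTEC markers given above, and their part in these differences was not tested. Aldh1a2 had 11 reads in KO cTEC and 6 in WT cTEC, too few to place.

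In mTEC the intervals of these genes other than Adh7, Rdh10 and Cyp26b1 included equality. Aldh1a1 had 87 reads in KO mTEC and 88 in WT mTEC (log2 ratio -0.06, -0.50 to 0.38), Aldh1a2 85 and 80 (0.04, -0.41 to 0.50), Aldh1a3 712 and 757 (-0.13, -0.28 to 0.02) and Dhrs3 774 and 684 (0.13, -0.02 to 0.28). Crabp2 had 198 reads in KO mTEC and 204 in WT mTEC (-0.09, -0.38 to 0.20), and its cTEC ratio was -0.15 (-0.50 to 0.20). Of the 9 genes, 1 had an interval above equality and 2 below, against 11.6% and 10.2% of all genes in that pair.

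Rdh10 and Dhrs3 had different genotype ratios in the populations. Rdh10 was at 50.8 CPM in KO mTEC, against 57.6 CPM in WT mTEC (log2 ratio -0.18, -0.31 to -0.05), and at 34.7 CPM in KO cTEC, against 30.0 CPM in WT cTEC (0.21, 0.03 to 0.39). The mTEC ratio minus the cTEC ratio was -0.39 (-0.61 to -0.17) for Rdh10 and 0.37 (0.20 to 0.54) for Dhrs3. For the other 7 genes, Adh7 and Aldh1a2 with too few reads in cTEC among them, the interval of this difference included 0. Of the 13950 genes with at least 50 reads in both pairs, 24.2% had an interval that excluded 0, and the median size of the difference was 0.15. The number of Dhrs3 reads per Rdh10 read was 1.24-fold higher in KO mTEC than in WT mTEC and 1.36-fold lower in KO cTEC than in WT cTEC.

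**Figure D4:**
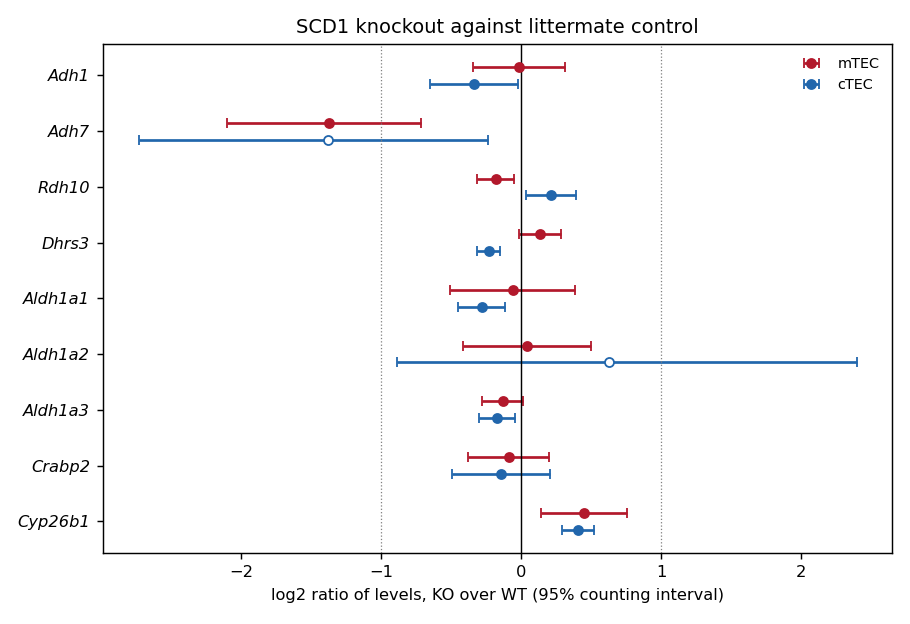
Log2 ratio of KO over WT (x axis) for each gene (y axis) in mTEC and in cTEC, with 95% counting intervals as whiskers. The dotted lines mark 2-fold and open circles pairs under 50 reads: Adh7 lies near -1.4 in both populations, Cyp26b1 right of 0 in both, and Rdh10 on opposite sides.

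The wider retinoid pathway was described with 68 further genes found by name out of 69 listed. Between genotypes, 1 of these genes was called in mTEC and 2 in cTEC. In mTEC 51 had at least 50 reads, 35 above and 16 below equality, with a median log2 ratio of 0.06, and Adh6b was the 1 gene called, where 0.504% of all genes were called higher. In cTEC 39 had enough reads, 24 above and 15 below, with a median of 0.04. None was called higher, and the 2 called lower there, where 0.706% of all genes were, were those of the plasma carriers of retinol. Rbp4 had 21 reads in KO cTEC, against 47 in WT cTEC (-1.34, -2.18 to -0.59), and transthyretin (Ttr) 13, against 40 (-1.78, -2.85 to -0.89). Their mTEC ratios were -0.23 and -0.11. Alb, a hepatocyte marker, had 80 reads in KO cTEC, against 526 in WT cTEC. Of the summed CPM of the 5 enterocyte and hepatocyte markers it was 34.4 of 41.6 in WT cTEC. In KO cTEC it was 4.56 of 10.2 CPM. Of the other 4, Hnf4a had 4 reads in KO cTEC, against 8 in WT cTEC, Fabp1 6, against 13, Vil1 61, against 66, and Apoa4 28, against 23. Their part in the Rbp4 and Ttr differences was not tested.

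Between populations the pathway differed in more places. In the KO pair 14 of 46 genes with enough reads were called higher and 8 lower in mTEC, where 19.8% and 8.96% of all genes were. The WT pair had 13 higher and 6 lower of 47, where 19.0% and 8.53% of all genes were. The median log2 ratios were 0.18 in KO and 0.10 in WT, with both signs dependent on the minimum of reads.

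Of the transport and uptake genes, 6 of 9 were called higher and 1 lower in mTEC in KO, and 4 of 8 higher and none lower in WT. Of the ester and carotenoid genes, 1 of 6 was called higher and 1 lower in KO, and 2 of 7 higher and 1 lower in WT. Over all genes the shares called higher and lower were 19.8% and 8.96% in KO, and 19.0% and 8.53% in WT. Stra6, the receptor that takes up retinol from its plasma carrier, had 1582 reads in KO mTEC, against 79 in KO cTEC, and 1613 in WT mTEC, against 50 in WT cTEC (log2 ratios 4.31 and 4.84). Lrat, which stores retinol as esters, had 148 reads in KO mTEC, against 13 in KO cTEC, and 152 in WT mTEC, against 13 in WT cTEC. Rbp4 and the retinal-binding protein gene Rlbp1 were also called higher in mTEC in both genotypes, Rbp4 with log2 ratios of 3.86 in KO and 2.75 in WT and Rlbp1 with 4.39 and 4.20. Ttr (2.59 in KO) and Rbp7, a cellular retinol-binding protein gene with 74 reads in KO mTEC against 6 in KO cTEC, were called in the KO pair, and the carotenoid oxygenase gene Bco1 in the WT pair with 52 reads in mTEC, against 10 in cTEC.

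Some genes of uptake and storage lay on the cortical side. Lpl, the lipoprotein lipase gene, was lower in mTEC with log2 ratios of -2.58 in KO and -2.21 in WT. Fabp5, which can carry retinoic acid to PPARD, was the most abundant gene of the list and stood at 801 CPM in KO mTEC, against 1340 CPM in KO cTEC (-0.74), and at 719 CPM in WT mTEC, against 1149 CPM in WT cTEC (-0.68). The lipase gene Pnpla2 (0.38 in KO and 0.39 in WT) and the acyltransferase gene Dgat1 (-0.56 and -0.29) were below 2-fold.

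Among further enzymes, the carbonyl reductase gene Cbr1 was called lower in mTEC (-1.06 in KO and -1.26 in WT), as was the aldehyde oxidase gene Aox1 (-1.94 and -1.81), while Aox3 (2.17 and 2.28), Aldh1a7 (5.45 and 3.68) and Adh6a (2.53 and 2.72) were called higher. The aldo-keto reductase gene Akr1b8 (1.13 in KO, 0.87 in WT) was called higher in the KO pair, and Sdr16c6 in the WT pair with 43 reads in mTEC, against 8 in cTEC. Cyp1b1, a cytochrome P450 gene with retinol among its substrates, was called lower in the KO pair (-1.25 in KO, -0.92 in WT). Adh5 (-0.95 in KO and -0.79 in WT), Dhrs4 (0.54 and 0.46) and Cyp2s1 (-0.48 and -0.58) were below 2-fold.

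Of the 6 receptor genes 5 had enough reads, and none of these was called between populations in either genotype. Of all genes, 28.8% were called in KO and 27.5% in WT. Rarb had too few, with 27 reads in KO mTEC, against 5 in KO cTEC. In WT it had 14 in mTEC, against 10 in cTEC. Rarg, a retinoic acid receptor gene, was at 60.4 CPM in KO mTEC, against 114 CPM in KO cTEC (-0.91), and at 64.8 CPM in WT mTEC, against 126 CPM in WT cTEC (-0.95). The retinoid X receptor genes Rxra and Rxrb had log2 ratios of -0.80 and -0.45 in KO and -0.80 and -0.44 in WT. Genes listed as responsive to retinoids went both ways. The transcription factor gene Cdx1 (4.59 in KO and 4.36 in WT) and Rarres1 (4.33 in KO and 4.0 in WT) were higher in mTEC, and the transglutaminase gene Tgm2 (-1.11 and -1.12) and the repressor gene Hic1 (-1.40 and -1.43) were lower.

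**Figure D5:**
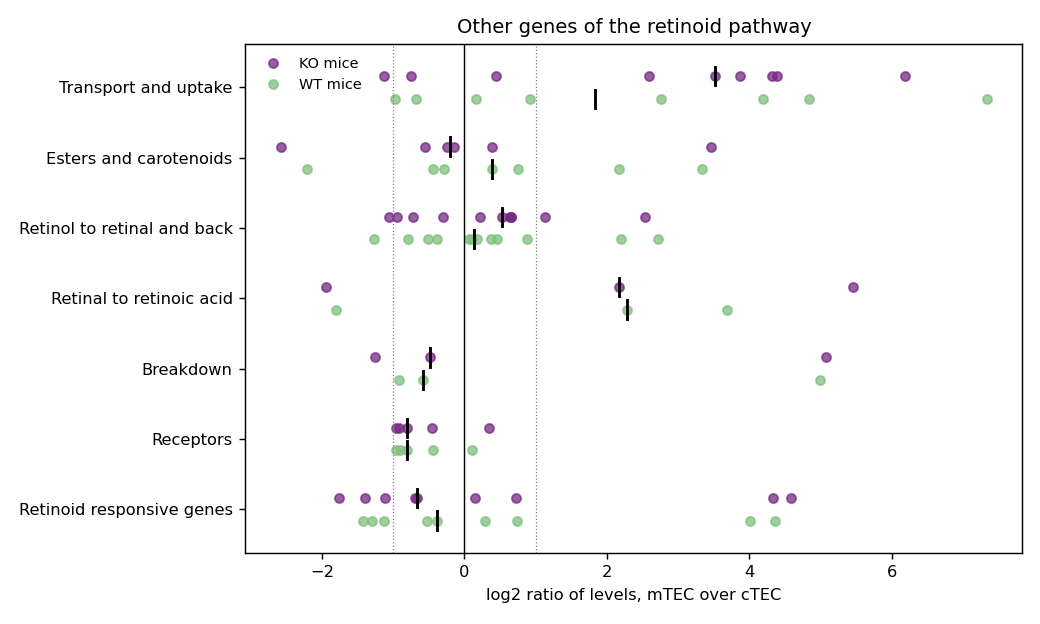
Log2 ratio of mTEC over cTEC (x axis) for the other retinoid pathway genes with at least 50 reads in a pair, by role (y axis), in KO and in WT mice. Each point is a gene, the black bars are the medians of a role and the dotted lines mark 2-fold: transport genes reach furthest to the right, and 4 of the 5 receptor genes lie between 0 and -1 in each genotype.

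For Dhrs3, Aldh1a1 and Cyp26b1, the most similar genes across the 4 libraries were found by the distance between profiles of log2 CPM centred on their mean, among 12766 protein-coding genes with at least 200 reads. Cyp26b1 was nearest to Diras2, a GTPase gene (distance 0.089), then to Cd83, which promotes MHC class II surface expression in cTEC (0.14), and to Inmt, a methyltransferase gene (0.18). Aldh1a1 was nearest to Zfp185 (0.099), Mdga1 (0.11) and Tns1 (0.20), and Dhrs3 to Hist1h1d (0.057), Bicc1 (0.092) and Isl2 (0.11). Adh7 and Aldh1a2, also called, had fewer than 200 reads in all and were left out. With 4 libraries, many genes high in cTEC have such profiles. Among the members themselves, Adh1 and Aldh1a3 (0.39), Rdh10 and Crabp2 (0.39) and Aldh1a1 and Cyp26b1 (0.61) were the closest pairs, and Aldh1a2 and Cyp26b1 the farthest apart (6.04).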

How the data were processed

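RNA of sorted mouse mTEC and cTEC was sequenced in 4 libraries, 1 per genotype and population. The deposited values are raw counts of reads, which the authors did not normalize. Per the submitters' processing notes, CASAVA, HISAT2 2.0.5 and featureCounts 1.5.0-p3 were used on mm10. Neither the annotation nor the handling of strand and multi-mapping reads was found in the sources used here. Gene length in bases, another (other) unit, came per the file headers from the same table and served to compute TPM.

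Counts were scaled by the trimmed mean of M-values in edgeR 4.0.16 under R 4.3.3. Log2 ratios used a prior count of 0.5 and exact conditional binomial 95% intervals, and levels exact Poisson intervals (Python 3.11.15, numpy 2.4.6, pandas 2.3.3, scipy 1.17.1, matplotlib 3.10.9). Intervals of differences between log2 ratios are normal approximations to counting error. Without molecular identifiers, PCR copies count as separate reads, so the intervals and floors (3 counts of a library) describe counting error alone. With 1 library per group, no p-value was computed. A gene was called with at least 50 reads in a pair, 2-fold and an interval excluding equality. The calculation was checked on simulated counts.

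The 9 genes, the pathway list and the marker lists were chosen with earlier results of these data known. All 9 genes are named. Pathway genes were named if called anywhere or among the 3 with most reads of a role. Some genes that meet this rule are not reported here. Rbp5 was not matched, and the marker Ccl21a, present in 2 rows, was left out. Windows of 50 bases of the longest GENCODE M21 transcripts measured sequence shared between genes. Alternatives were DESeq2 1.42.0 size factors, total-count scaling, a prior count of 2 and minimums of 10, 200 or no reads.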

Additional observations from a re-analysis of the deposited data

Results flagged for a closer look

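Rdh10 had genotype log2 ratios of opposite sign in the populations, each with a counting interval that excludes 0. The ratio of KO over WT was -0.18 in mTEC and 0.21 in cTEC, a difference of -0.39 (mTEC ratio minus cTEC ratio). Each ratio comes from 1 pair of libraries, and the difference was not tested over replicates. Dhrs3 also had an interval of this difference that excludes 0. So did 24.2% of the 13950 genes with at least 50 reads in both pairs.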

How the results depend on the processing

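With DESeq2 size factors and with a prior count of 2, each of the 36 log2 ratios of the 9 genes stayed within its counting interval and kept its sign. With total-count scaling all 36 stayed within their intervals, and Adh1 between mTEC and cTEC in KO changed sign (0.05). Rdh10 between mTEC and cTEC in WT then passed 2-fold (1.03), which made 6 genes called there in place of 5. Shifts were at most 0.027 with DESeq2 size factors, 0.093 with total counts and 0.27 with the prior count of 2. The number of genes called depended on the minimum of reads. In KO against WT mTEC it was 770 with a minimum of 10 reads, 19 with 200 and 992 with none (154 as reported), and in KO against WT cTEC 844, 20 and 1182 (173). In mTEC against cTEC it was 7307, 2515 and 8136 in KO (4592) and 6989, 2353 and 7790 in WT (4333). Of the 9 genes, none was called in KO against WT mTEC with a minimum of 200 reads, since Adh7 had 92 in the pair. In KO against WT cTEC 1 was called with a minimum of 10 reads and 1 with none (0 as reported), and 3 were called in mTEC against cTEC in WT with 200 reads (5 as reported). The pathway median between populations was 0.28 in KO and 0.19 in WT with total counts, 0.65 and 0.48 without a minimum, and reversed to -0.46 and -0.41 with 200 reads. No paired analysis was possible because each group has 1 library, and no replicate could be left out. The depth limits Adh7 and Aldh1a2 in cTEC, with 6 to 21 reads per library.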
